A study of Mus musculus with 18 samples.

Results

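The comparison described here sets the oculomotor nucleus against the spinal cord in young mutant mice of a model of amyotrophic lateral sclerosis (ALS). Its members are the 3 oculomotor and the 3 spinal cord arrays labelled as mutants of 6 weeks, which are 6 of the 18 arrays of the series, and all 22626 probe sets that are not array controls (of 22690). Total RNA of each region was hybridised to the Affymetrix 430A mouse array. Spinal cord means cervical spinal cord throughout. The series also holds both regions from mutants of 10 weeks and from controls of 10 weeks, with 3 arrays in each of these 4 groups. These arrays are used below only to ask which regional differences of young mutants are small, absent or turned round at 10 weeks. The labels name no mutation, transgene, promoter, strain or sex and do not say whether animals were pooled, and the controls carry the same description of an ALS model as the mutants. No control of 6 weeks was measured, so that age and genotype cannot be told apart wherever 6-week mutants are set against 10-week controls. The series text calls the replicates independent, but nothing states that each array is a separate animal. The p-values therefore measure only the spread between these samples, which may be technical.

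The oculomotor nucleus lies in the ventral midbrain and holds the cholinergic motor neurons that move the eye and lift the eyelid. It is among the few motor nuclei that keep working until late in ALS, whereas motor neurons of the spinal cord are lost. Around it lie dopamine neurons of the ventral tegmental area and substantia nigra, serotonin neurons of the raphe and the fibres of the midbrain tegmentum. The spinal cord holds motor neurons, dorsal horn interneurons, thick tracts of white matter, and a cover of meninges from which the roots leave. The position of a cell along the body axis is written in its transcription factor genes. Hox genes are active from the hindbrain to the tail, and Irx, En and Foxa genes are active in the midbrain, though not only there.

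Values are signals on a linear scale in arbitrary units, and tests were run on log2 of the signal plus 25. Where signals are set against each other, those of the oculomotor arrays come first, in the order of the replicate numbers. A log2 difference is positive where the oculomotor nucleus was higher and is given with its standard error. A probe set was called where its adjusted p lay under 0.05 in limma, over 13575 probe sets left after the dimmest 40% were set aside. That filter used the mean over arrays, so a gene dim in either region was tested only where the other was bright. For such genes the direction came with the filter. They include Slc6a4, Slc6a3, Chodl and Col1a1 below, so the counts of the serotonin, dopamine, motor neuron and meningeal lists are partly fixed by it. The 6 arrays were alike in quality: their median signals lay between 207 and 225.9, and the correlation across probe sets was 0.973 to 0.977 within the oculomotor group, 0.98 to 0.983 within spinal cord and 0.958 to 0.964 between the regions. One array of the series, replicate 1 of control spinal cord, was left out because its correlation with every other array lay between 0.0104 and 0.0143, so that its group holds 2 arrays.

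At 6 weeks 3239 probe sets, 23.9% of those tested, were called: 1656 higher in the oculomotor nucleus and 1583 lower. Most differences were modest, since 1860 of these were smaller than 1.5-fold and 338 (2.49%) reached 2-fold, 131 higher and 207 lower. The largest differences leaned one way: 9 called probe sets were over 4-fold higher in the oculomotor nucleus and 39 over 4-fold lower. Of all tested probe sets, 37.4% had their 3 arrays of one region all on one side of the 3 of the other, 2786 above and 2289 below. These counts depend on how arrays are brought to one scale, because with median centring 39.7% of the calls were higher in the oculomotor nucleus in place of 51.1%. The number of arrays limits the precision, and in these pieces of tissue fewer cells of a type and less RNA per cell cannot be told apart.

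**Figure D1:**
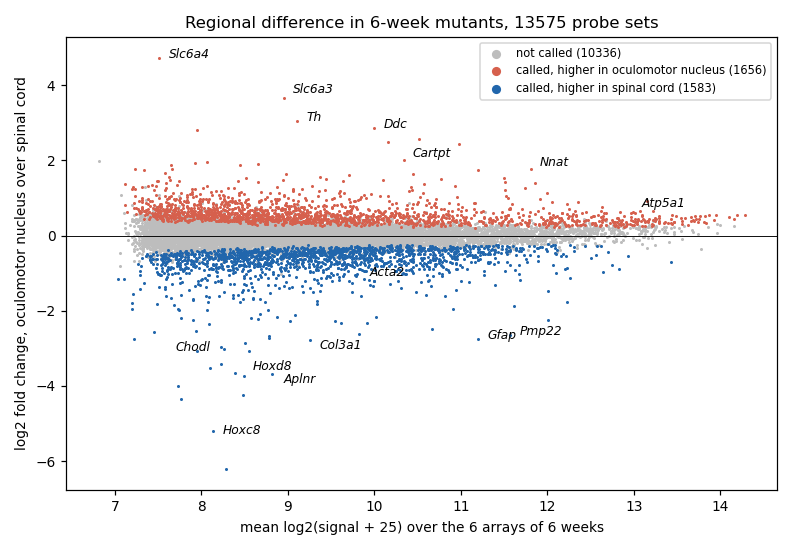
Log2 difference between regions in 6-week mutants (y axis, positive where the oculomotor nucleus was higher) against the mean log2 signal (x axis) for the 13575 tested probe sets, with called probe sets in colour and some genes labelled. The called differences reach further down than up, with 39 over 4-fold lower and 9 over 4-fold higher.

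The labels were first set against marker genes. This is no independent check, since Hoxd8 was given with the comparison and the lists were chosen with earlier results of these data known. Hox genes, which the midbrain does not use, separated the groups as the labels say: the signals of Hoxd8, a homeobox gene of the trunk, were 79.1, 60.8 and 82.5 on the oculomotor arrays and 1179.9, 1425 and 1247 on the spinal cord arrays. Summed over the 24 Hox genes of the list that are on the array, signals ran from 1271 to 1629 in the oculomotor nucleus and from 10418 to 10659 in spinal cord. Markers of the oculomotor motor neurons themselves were faint. Phox2a, the transcription factor without which the oculomotor nucleus does not form, gave 58.5, 69.7 and 63.5 against 42.3, 44.6 and 38.5 in spinal cord, without overlap but under the limit for testing. The motor neuron factor Isl1 was dim on both of its probe sets, at 5.3, 59.7 and 42.9 against 97.7, 68.9 and 104 on one and 23.2, 108 and 13.4 against 29.8, 49.6 and 76.3 on the other, where the regions overlapped.

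Some markers of the midbrain around the nucleus were plain, while other listed factors, given below, were not. En1, which sets the midbrain and hindbrain border, gave 257, 204 and 199.5 against 20.0, 29.6 and 41.0, and Foxa1, a factor of the ventral midbrain, 221, 246 and 197 against 15.5, 13.0 and 23.6. Gata3, a factor of serotonin and inhibitory neurons, stood at 228, 169 and 213 against 6.7, 44.7 and 5.5. The mean signals of these 3 genes over all arrays lay under the limit for testing, and in each the oculomotor arrays all lay above the spinal cord arrays. Growth hormone transcript, which the pituitary below the midbrain makes, was scattered over the oculomotor arrays: Gh had 1045, 30.2 and 289 against 132, 145 and 49.1 (adjusted p = 0.551). The summed signal of 11 pituitary genes ran from 3149 to 4189 in the oculomotor nucleus and from 2528 to 2680 in spinal cord, and that of 9 blood genes from 754 to 992 and from 1343 to 2019.

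Genes of dopamine neurons were higher in the oculomotor samples. Of the 14 tested, 10 were called higher and 1 lower, with a median log2 difference of 1.41, against 12.6% of all 8072 tested genes called higher, 12.4% called lower and a median of 0.04 (each gene by its brightest probe set). Slc6a3, the dopamine transporter, had signals of 1469, 1729 and 2058 in the oculomotor nucleus and 116, 125 and 103 in spinal cord. Th, which makes the dopamine precursor, had 1514, 1432 and 1756 against 141, 190 and 175. For both genes the regions lay far apart, at log2 differences of 3.66 ± 0.17 and 3.05 ± 0.13. Ddc, the enzyme that finishes dopamine and serotonin, followed at 2.86 ± 0.15, and Gch1, which makes the cofactor of Th, at 1.35 ± 0.16.

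Of the transcription factors that keep dopamine neurons in their identity, Foxa2 (1.57 ± 0.17) and Nr4a2 (1.47 ± 0.18) were called higher. So were En2 (1.05 ± 0.20), the nicotinic receptor subunit Chrna6 of dopamine axons (1.78 ± 0.23) and the dopamine receptor Drd2 (0.83 ± 0.16). The exceptions among the tested genes were Sncg, a synuclein that is also abundant in sensory and motor axons and was lower (-0.50 ± 0.14), and Ret (0.06 ± 0.14), Gfra1 (-0.37 ± 0.17) and Aldh1a1 (0.16 ± 0.11), which were not called. The listed factors Pitx3 and Lmx1b were under the limit for testing, and the regions overlapped in both. Pitx3 had 168, 140.8 and 145.5 against 117.7, 104.6 and 160.9. Lmx1b had 36.5, 133 and 58.8 against 37.5, 60.3 and 65.3. At 10 weeks the same list had medians of 1.23 in mutants and 1.27 in controls. Dbh, which turns dopamine into noradrenaline, was called higher at 6 weeks (0.97 ± 0.27) and had 0.29 and -0.04 at 10 weeks. The difference between ages was not called for it (adjusted p = 0.399 against 10-week mutants).

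Of the serotonin list 4 of 5 tested genes were called higher and 0 lower. Of these Gch1 is also in the dopamine list and Gata2 also in the list of spinal interneurons and dorsal horn. The serotonin receptor Htr5b, under the limit for testing, had 73.7, 76.1 and 54.6 against 99.1, 92.3 and 60.5. There the regions overlapped, whereas in Gata3, given above, they did not. Slc6a4, the serotonin transporter, gave 975, 710.4 and 1103 in the oculomotor nucleus and 6.7, 15.1 and 10.2 in spinal cord. The oculomotor arrays were far above, but the spinal cord signals lay under the offset of 25, so the size of the difference hangs on that offset: 4.73, or 3.20 with an offset of 100. Slc6a4 was tested only because its oculomotor signals were bright, so its call higher is no separate evidence. The serotonin receptor Htr1a (0.67 ± 0.11) and the neuron factor Gata2 (0.70 ± 0.14) were called higher with smaller differences. Of the related receptor Htr1b the value was 0.46 ± 0.17 and was not called.

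Position genes separated the regions. All 8 tested Hox genes passed with less signal in the oculomotor nucleus than in the spinal cord (median -3.57). Of the 30 listed, 24 are on the array, and the others of these were under the limit for testing. That limit applies to the mean over arrays, so a gene dim in the oculomotor nucleus was tested only where spinal cord was bright. For such genes the direction came with the filter, and the count of 8 is no separate evidence. Among untested members the regions overlapped in some, such as Hoxb7 and Hoxb1, and not in others, such as Hoxc4 and Hoxd9. Hoxc8 had 24.2, 23.5 and 17.4 in the oculomotor nucleus and 1700, 1525 and 1825 in spinal cord. Since its oculomotor signals lie under the offset, its log2 difference of -5.19 shrinks to -3.87 with the larger offset, and that of Hoxb5 goes from -4.34 to -3.09 in the same way. Hoxb2, whose limit of expression lies in the hindbrain, differed less (-1.69 ± 0.17).

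Of the factors of midbrain and hindbrain, 7 of 13 were called higher and 2 lower. Irx2 had 674, 779 and 498 against 167, 144 and 161, without overlap. Its relatives Irx1 (1.05 ± 0.16), Irx5 (0.74 ± 0.13) and Irx3 (0.52 ± 0.11) were called higher too. Tcf7l2, a Wnt factor strong in thalamus and midbrain, was higher by 2.80 ± 0.18 and Tal1, which specifies inhibitory neurons of the midbrain, by 1.26 ± 0.14. The members called lower were Ebf1 (-1.22 ± 0.14) and Ebf3 (-0.56 ± 0.13), factors that spinal neurons also use. Of the listed factors under the limit for testing, Otx2 and Lhx9 were higher on all oculomotor arrays. Sall3 and Pou3f1 were lower on all of them, with Sall3 at 11.2, 19.6 and 50.2 against 147.5, 154.5 and 94.8. In Pax5, Zic2, Sox14 and Nkx6-1 the regions overlapped.

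Genes of cholinergic and motor neurons were mostly lower in the oculomotor nucleus: 12 of 22 were called lower and 4 higher, with a median of -0.64. Slc18a3, which fills vesicles with acetylcholine, had 259, 204 and 254 against 990, 1263 and 1071. Chodl, a lectin gene of fast motor neurons, had 85.5, 103 and 62.4 against 896, 736 and 807. In both the highest oculomotor array lay under the lowest spinal cord array, and the log2 differences were -2.10 ± 0.13 and -2.96 ± 0.20. The choline transporter Slc5a7 was lower by less (-0.88 ± 0.18), and the acetylcholine-splitting enzyme Ache was not called (-0.04 ± 0.18). Calcb, a calcitonin gene peptide of motor neurons, was lower (-1.98 ± 0.17), as was Mmp9, a protease marking fast motor neurons (-0.85 ± 0.15).

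The neurofilament genes formed a series. The heavy chain Nefh (-1.14 ± 0.10) and the medium chain Nefm (-0.78 ± 0.13) were called lower, while the light chain Nefl was not (-0.16 ± 0.09). Peripherin, a filament of neurons with peripheral axons, was split: 1 probe set of Prph had 108, 106 and 76.0 against 523, 586 and 675, and the other was called in the opposite direction. Their log2 differences were -2.35 and 0.55, so no single value holds for that gene. Members called higher were Prkcd, a kinase strong in thalamus (1.22 ± 0.25), the nicotinic subunit Chrna4 (0.95 ± 0.13), the cadherin Cdh8 (0.85 ± 0.15) and the zinc finger factor Rreb1 (0.54 ± 0.14).

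**Figure D2:**
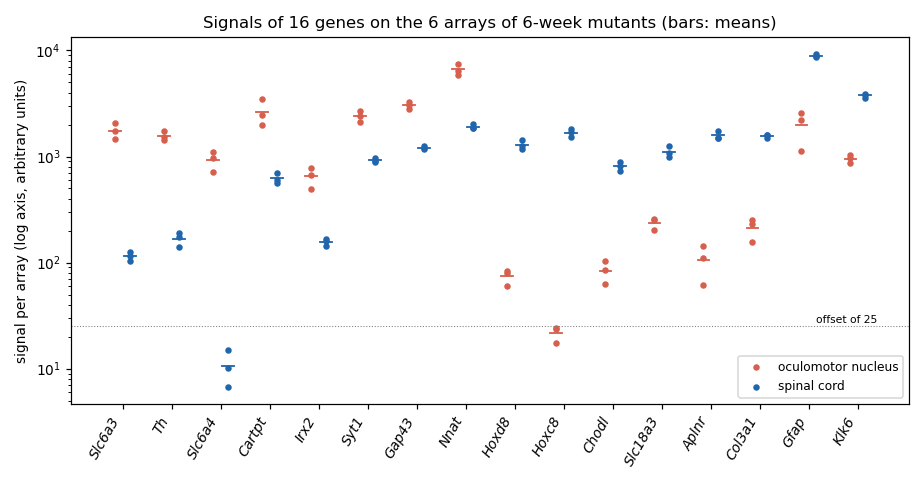
Signal of 16 genes on each of the 6 arrays of 6-week mutants (points; bars are means of 3 arrays; log axis in arbitrary units), with the oculomotor nucleus in red and spinal cord in blue. The genes were picked from those named by their 6-week values, so that the regions do not overlap for any of the 16 is no finding. Of all tested probe sets 37.4% showed no overlap. The spinal cord signals of Slc6a4 and the oculomotor signals of Hoxc8 lie under the offset of 25.

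Peptides and factors of the dorsal horn were lower, with 7 of 14 called lower and 2 higher. Lbx1, which specifies dorsal horn interneurons, was lower by 1.57, the neurokinin B gene Tac2 by 3.07, neuropeptide Y (Npy) by 1.10, the enkephalin precursor Penk by 0.77 and the itch peptide Grp by 0.69 on the log2 scale. Cck, which is common in midbrain neurons, was called higher (0.54 ± 0.17). Among other peptides Cartpt stood out. Its signals were 2466, 1984 and 3508 in the oculomotor nucleus and 600.4, 699 and 567 in spinal cord. The 3 oculomotor arrays differed among themselves more than those of spinal cord but lay above all of them (2.01 ± 0.15). The granin Scg2 (0.84 ± 0.08) and vasoactive intestinal peptide, Vip (0.91 ± 0.25), were called higher. Nts, the neurotensin gene (-0.70 ± 0.13), and Nppc, a natriuretic peptide (-0.94 ± 0.19), were called lower.

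The lists of the inhibitory transmitters leaned in opposite directions. In the glycine list 4 of 5 were called lower, with the receptor subunit Glra1 at -1.47 ± 0.24 and the transporter Slc6a9 at -0.50 ± 0.11. The other called members, Gphn (-0.40) and the vesicle transporter Slc32a1 (-0.25), serve GABA synapses as well. The call of Slc32a1 was kept under only 7 of 17 alternatives. GABA genes were mostly higher, 5 of 9 with 1 lower. Gad2, which makes GABA at terminals, gave 1003, 724 and 864 against 313, 334 and 399.7, and its partner Gad1 gave 3833, 3501 and 4416 against 2149.9, 2090.1 and 2766. The oculomotor arrays lay higher for both, at 1.24 ± 0.15 and 0.74 ± 0.12. The receptor subunits differed among themselves: Gabrb2 was higher (0.98 ± 0.19) and Gabra2 lower (-1.12 ± 0.20). Glutamate genes were called higher for 5 of 9 and lower for 0, with the AMPA receptor subunits Gria1 at 0.75 ± 0.11 and Gria2 at 0.70 ± 0.12 but Gria3 at 0.03 ± 0.12 and Gria4 at -0.01 ± 0.20, which were not called.

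Synaptic vesicle genes were higher on a broad front. Of 23 tested, 16 were called higher and 1 lower, and their summed signal ran from 83702 to 90157 in the oculomotor nucleus and from 66774 to 74188 in spinal cord. Syt1, the calcium sensor of fast release in forebrain and midbrain, had 2711, 2125 and 2413 against 969, 916 and 888. Syt2, the sensor that spinal and brainstem synapses use in its place, was the member called lower, with 1117, 1008 and 771 against 1987, 1732 and 1804. The regions did not overlap for either sensor, and their log2 differences were 1.36 ± 0.11 and -0.93 ± 0.14. The vesicle proteins Vamp2 (1.03 ± 0.11), Syngr3 (1.28 ± 0.11) and Syp (1.00 ± 0.12) were called higher, whereas Vamp1 had -0.17 ± 0.08 and Snap25 0.23 ± 0.10, neither called.

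Channel genes divided evenly, with 5 of 21 called higher and 5 lower. The sodium channel genes Scn2a (1.05 ± 0.13) and Scn3b (1.04 ± 0.11) were higher. Scn8a, the channel of axon nodes (-0.38 ± 0.11), and Kcna1, a potassium channel beside the node (-0.71 ± 0.13), were lower. Of the calcium-binding proteins, which are often named where oculomotor neurons are compared with spinal motor neurons, 6 of 9 were called higher and 2 lower. Calretinin (Calb2) had 3848, 4123 and 3502 against 2221, 2564 and 2260.1. Calbindin (Calb1) had 1498, 2107 and 1624 against 1305, 1179 and 1041, and parvalbumin (Pvalb) had 2068, 2825 and 2812 against 2341, 2243 and 2515. Calretinin and calbindin were called higher (0.70 ± 0.10 and 0.55 ± 0.13) and parvalbumin was not called (0.10 ± 0.12). The 2 called lower, S100b (-1.01 ± 0.10) and S100a10 (-0.69 ± 0.14), are genes of glia and of many other cells.

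Genes of growing neurons did not move as a group: 11 of 21 were called higher and 5 lower. Gap43, a growth cone protein, had 2817, 3295 and 3048 against 1198, 1260.1 and 1185. Nnat, an imprinted gene of young neurons, had 6466, 7531 and 5893 against 2038, 1871 and 1846. Both were higher without overlap (1.31 ± 0.08 and 1.77 ± 0.10). Cd24a, a surface protein of young neurons and ependyma, went the other way, with 343, 421 and 464 against 2198, 1988 and 2195, and all 3 of its probe sets lay between -2.53 and -2.32. Tubb2b (-0.73 ± 0.14) and Sox4 (-0.41 ± 0.11) were lower too.

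A further imprinted group shared a direction. Dlk1, Meg3 and Rian lie in 1 imprinted gene cluster, in which Dlk1 is made from the paternal copy and the noncoding RNAs Meg3 and Rian from the maternal copy. Dlk1 had 1057, 1123 and 1251 against 325, 444 and 403, a 2.83-fold difference (adjusted p = 9.24e-06). The 5 probe sets of Meg3 lay between 1.13 and 1.73, and the brightest had 5986, 6262 and 5781 against 3029, 2514 and 2659. Those of Rian ran from 0.24, which was not called, to 1.96. Another nuclear noncoding RNA, Malat1, had 5 probe sets between 0.18 and 1.39, and its call was lost under several of the alternatives tried.

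Glial genes were lower in the oculomotor samples, but not all glia alike. Of the genes of resting astrocytes 6 of 19 were called lower and 2 higher, whereas of the reactive astrocyte list 7 of 11 were called lower and 0 higher. Gfap, the astrocyte filament, had 2226, 2549 and 1126 against 8615, 9282 and 8947. One oculomotor array had less of it than the other 2, and all 3 lay under spinal cord. The small heat shock protein Hspb1 (-1.46 ± 0.17), the hyaluronan receptor Cd44 (-1.62 ± 0.17) and ceruloplasmin, Cp (-1.30 ± 0.16), were called lower. Gfap, Vim and Cd44 are also made by the fibrous astrocytes of white matter, and the part of white matter in these values was not tested. The glutamate transporters of astrocytes split, Slc1a2 being lower (-0.52 ± 0.15) and Slc1a3 higher (0.59 ± 0.18).

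In myelin genes, 15 of 28 were called lower and 0 higher, with a median of -0.39 at 6 weeks, -0.63 in 10-week mutants and -0.70 in 10-week controls. Klk6, a protease of mature spinal oligodendrocytes, had 961, 1034 and 874 against 3825, 3915 and 3573. The gap junction gene Gjb1 (-1.14 ± 0.10) and the lipid enzymes Fa2h (-0.95 ± 0.12) and Ugt8a (-0.86 ± 0.08) were lower. The main structural genes were not called at 6 weeks: Mbp had 0.25 ± 0.14, Cnp 0.10 ± 0.12 and Mal -0.13 ± 0.12. Of the microglia and macrophage list 11 of 19 were called lower and 0 higher. The most marked were Mpeg1 (-1.38 ± 0.30) and Lyz2 (-1.13 ± 0.17), which macrophages also make, while the microglial receptors P2ry12 (-0.28 ± 0.12) and Cx3cr1 (-0.18 ± 0.16) were not called.

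Connective tissue genes were lower almost throughout their list. Of 26 meningeal and fibroblast genes 23 were called lower and 0 higher, at a median of -1.20, and the summed signal ran from 20242 to 25952 in the oculomotor nucleus and from 32131 to 34381 in spinal cord. The collagen gene Col3a1 had 229.7, 254 and 155 against 1499.7, 1611 and 1604. Col1a1 had 113, 123 and 36.3 against 981, 861 and 716, and the small proteoglycan Ogn 143, 202 and 107 against 1041, 1002 and 1289. In each the spinal cord arrays lay several fold above the oculomotor arrays, with log2 differences of -2.77 ± 0.17, -3.01 ± 0.28 and -2.72 ± 0.17. Of the Schwann cell list 3 of 5 were called lower, with the peripheral myelin gene Pmp22 at -2.65 ± 0.16.

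Endothelial genes hardly differed: 3 of 18 were called lower and 0 higher, and the median was -0.09. Cldn5 (0.07 ± 0.13), Pecam1 (-0.16 ± 0.14) and Flt1 (-0.07 ± 0.13) were not called. The exceptions were Vwf, the clotting factor of larger vessels (-1.56 ± 0.27), the drug pump Abcb1a (-0.54 ± 0.13) and the apelin receptor Aplnr. Aplnr had 142, 112 and 62.0 against 1756, 1507 and 1484, and its 2 probe sets stood at -1.96 and -3.67. By contrast, of the 12 tested genes of the pericyte and smooth muscle list 8 were called lower and 0 higher. Its members Myh11, Cnn1, Kcnj8 and Abcc9 were under the limit for testing, and the regions overlapped in each. The smooth muscle myosin gene Myh11 had 92.9, 96.4 and 62.6 against 89.1, 77.2 and 73.8, and Cnn1 had 22.4, 64 and 8.8 against 7.2, 14 and 18.7.

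Genes of cholesterol synthesis and uptake were lower in the oculomotor nucleus, 14 of 23 with 0 higher. The median was -0.48 at 6 weeks and -0.32 and -0.34 in mutants and controls of 10 weeks. Members ran from the early step Hmgcs1 to late steps. Hmgcs1 had 5302, 5534 and 5063 against 10551, 10491 and 8818. Msmo1, a sterol oxidase, had 1648, 1686 and 1746 against 4055, 4626 and 2306, and Idi1, which isomerises the isoprene unit, 1334, 1293 and 1033 against 2602, 2547 and 2338. The regions did not overlap for these genes, and Msmo1, Sc5d, Mvk and Cyp51 stood at -1.04, -1.02, -0.92 and -0.78. All 4 probe sets of Hmgcs1 were negative, from -0.90 to -0.30. The regulator Srebf2 itself was not called (0.20 ± 0.09).

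Because sterol genes share a regulator, the RefSeq promoters (mouse build GRCm38.p6, 250 bases before each gene's start) were searched on both strands for TCACNCCAC, the core of the sterol regulatory element. Of 27025 genes 331 (1.22%) held it, and of the 17 tested genes of the list with a promoter sequence 1 did (5.88%). That gene was Hmgcs1, whose promoter is shown because it is the only match in the list. It lies on the plus strand at chr13:119690101-119690350 and carries the match, in capitals, from 137 to 129 bases before the start on the plus strand.
Hmgcs1: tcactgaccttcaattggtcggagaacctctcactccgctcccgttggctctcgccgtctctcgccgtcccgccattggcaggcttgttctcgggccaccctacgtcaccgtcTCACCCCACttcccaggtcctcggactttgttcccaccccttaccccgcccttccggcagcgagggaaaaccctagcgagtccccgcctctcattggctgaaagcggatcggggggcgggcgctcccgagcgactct
A match describes letters only. Binding was not measured, and genes without a match can hold variants of the element or hold it elsewhere.

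Genes of the respiratory chain, the ribosome and common reference genes shifted little and mostly upward, and these small shifts depended on the scale. Of 41 respiratory chain genes 8 were called higher and 1 lower, but 3 and 1 after quantile normalization. Of 27 ribosomal protein genes 7 were called higher and 0 lower, but 1 and 0 after quantile normalization. Of 10 reference genes, 5 were called higher, among them Actb (0.50 ± 0.13) and Pgk1 (0.51 ± 0.12), and 1 after quantile normalization. Tbp (0.16 ± 0.15) and Sdha (0.09 ± 0.08) were not called. Of 31 proteasome genes 2 were called lower, Psmc1 and Psmc3, and neither kept its call under all alternatives.

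Genes that are mutated in familial ALS were set apart as a list of 18, of which 1 was called higher and 3 were called lower. Of all 8072 tested genes 12.6% were called higher and 12.4% lower, so the list did not stand out from the rest. Sod1, the copper-zinc superoxide dismutase, had 7466, 7836 and 9135 against 6543, 7282 and 5788, at 0.32 ± 0.12 (adjusted p = 0.0612). All 3 oculomotor arrays lay above the spinal cord arrays, but the difference was not called, nor was that of a second, dim probe set (0.25 ± 0.19). Tardbp (0.24 ± 0.19), Vcp (0.11 ± 0.07), Matr3 (0.28 ± 0.10) and Tbk1 (-0.06 ± 0.09) were not called either. The called members were Sqstm1 (0.54 ± 0.08), C9orf72 (-0.26 ± 0.09, a call lost under several alternatives), Nefh and 1 probe set of Prph. Among trophic genes Bdnf was higher (0.88 ± 0.20), and Igf1 (-1.40 ± 0.18), Igf2 (-1.03 ± 0.16), Fgf1 (-0.84 ± 0.08) and Lifr (-0.69 ± 0.16) were lower. Gpx3, a glutathione peroxidase, was higher (1.05 ± 0.17) while catalase, Cat (-0.70 ± 0.12), and Sod3 (-0.51 ± 0.14) were lower.

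**Figure D3:**
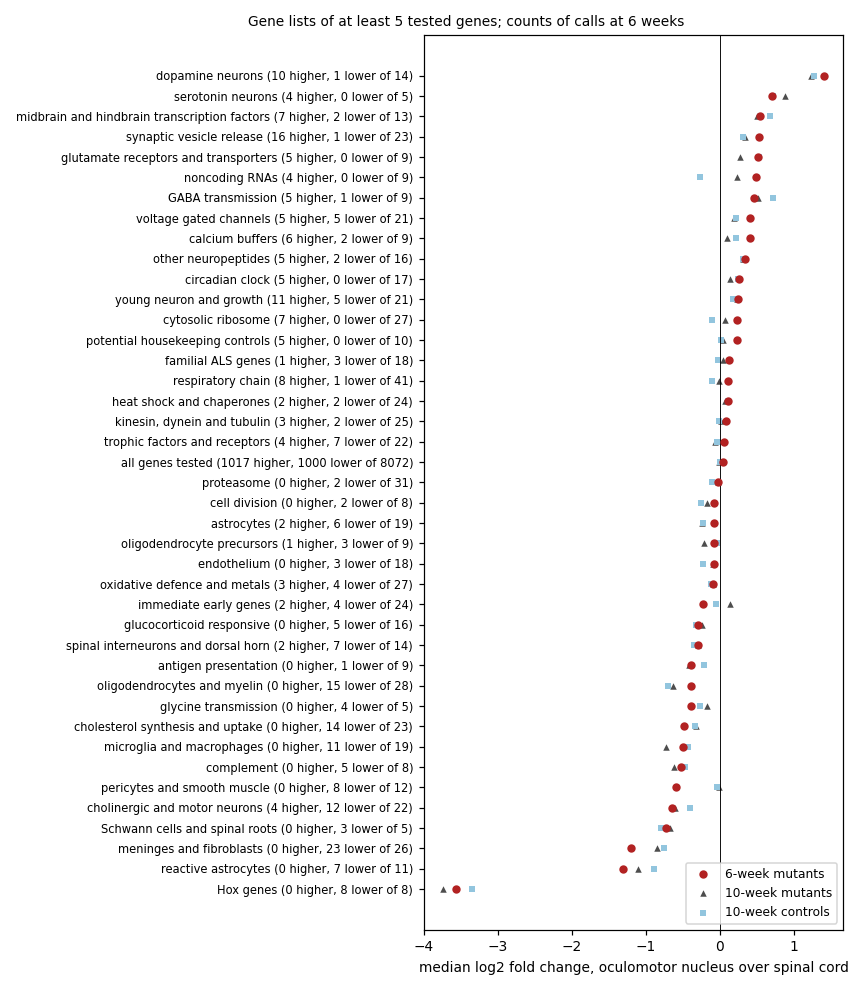
Median log2 difference between regions for each gene list (x axis) in 6-week mutants, 10-week mutants and 10-week controls, with the number of tested genes beside each list name. At 6 weeks the Hox list lies lowest, at -3.57, and the dopamine list at 1.41, while the smooth muscle list lies at -0.59 and stands at -0.01 and -0.04 at 10 weeks.

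The regional differences of young mutants were then set beside those of 10 weeks, which share no array with them. In 10-week mutants 19.3% of probe sets were called and in 10-week controls 13.6%. Of the 3239 calls at 6 weeks, 1472 were also called in 10-week mutants in the same direction, which is 45.4% of the 6-week calls and 56.2% of those of 10-week mutants, and 18 were called in the opposite direction. With 10-week controls 1238 were shared, 38.2% and 67.2% of each list, and 7 were opposite. In all 3 comparisons 1014 were called in the same direction. The remaining 1519 calls, 46.9%, were made at 6 weeks only. Being called at one age and not at another does not show that ages differ, so the difference between ages was tested itself.

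That test called few genes. The regional difference of 6-week mutants differed from that of 10-week mutants for 50 probe sets (0.368%), 31 with a more positive value at 6 weeks and 19 with a more negative one, and 2182 had an unadjusted p under 0.05. From the mean of both 10-week comparisons it differed for 102 (0.751%), 66 more positive and 36 more negative. Both counts hang on single arrays and on the fit. The 50 calls fell to 0 without replicate 2 of 6-week oculomotor nucleus, without replicate 1 or 3 of 10-week mutant oculomotor nucleus, and without replicate 2 of 10-week mutant spinal cord. They numbered 23, 21, 1, 14 and 11 without replicates 1 and 3 of 6-week oculomotor nucleus and replicates 1, 2 and 3 of 6-week spinal cord. Without replicate 2 of 10-week mutant oculomotor nucleus there were 15, and without replicate 1 or 3 of 10-week mutant spinal cord 3 each.

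The 102 calls ranged from 9 to 190 when 1 array was left out. They were 9 without replicate 1 of 6-week spinal cord or replicate 2 of control spinal cord, 16 without replicate 2 of 6-week oculomotor nucleus and 190 without replicate 3 of control spinal cord. They were 54 and 53 without replicate 3 of each 6-week group and 61 without replicate 2 of 6-week spinal cord. Without replicates 1, 2 and 3 of 10-week mutant oculomotor nucleus they were 49, 50 and 36, without replicates 2 and 3 of 10-week mutant spinal cord 66 and 64, and without replicates 1 and 3 of control oculomotor nucleus 41 and 52. With a replicate block neither test called any probe set. For the genes below whose age test was called, the number of alternatives under which it stayed called is therefore given out of those tried, for at least 1 of both tests. The mean of the 10-week comparisons holds controls, so in that test age and genotype cannot be told apart.

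**Figure D4:**
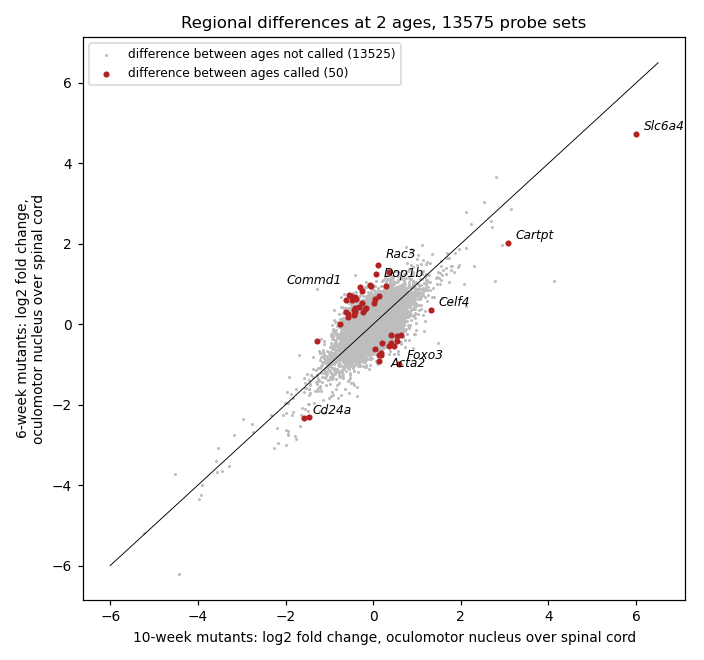
Log2 difference between regions in 6-week mutants (y axis) against that in 10-week mutants (x axis) for the 13575 tested probe sets, with a line where both are equal. The 50 probe sets whose regional difference differed between these ages are in red, most of them near 0 on the 10-week axis.

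To find differences present in young mutants and small later, probe sets were taken that were called at 6 weeks with at least 1.5-fold (1379, 10.2%) and lay under 1.2-fold in both 10-week comparisons. There were 146 (1.08%), of which 89 had more signal in the oculomotor nucleus and 57 more in the spinal cord. Of these, 16 also passed the test against the mean of the 10-week comparisons, 10 higher and 6 lower. These 16 depended on single arrays as well: they were 24, 1 and 9 without replicates 1, 2 and 3 of 6-week oculomotor nucleus, 2 and 7 without replicates 1 and 3 of 6-week spinal cord, 9 and 7 without replicates 2 and 3 of 10-week mutant oculomotor nucleus, 7 and 10 without replicates 1 and 3 of control oculomotor nucleus and 3 without replicate 2 of control spinal cord. They were 6 with quantile normalization, 5 with no filter and 0 with a replicate block or with all 18 arrays. The reverse rule, 1.5-fold in both 10-week comparisons and under 1.2-fold at 6 weeks, took 31 of 626 (0.228% of those tested), of which 5 passed that test. Lacking replicate 1 of control spinal cord, the control comparison rests on fewer arrays than the others.

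Among the 6 lower ones were Acta2 and Myl9, contractile genes of vessel walls. They were the 2 of 12 tested pericyte and smooth muscle genes that passed in each age test, both with a more negative value at 6 weeks, against 12 and 19 of all 8072 genes. These counts are no independent support. Both genes were picked by a rule on the same regional differences, and the lists were chosen with earlier results of these data known. Acta2, the actin of smooth muscle, had 595, 669.6 and 783 in 6-week oculomotor nucleus and 1157, 1083 and 1267 in 6-week spinal cord. At 10 weeks it had 646, 640.4 and 660.1 against 493, 607 and 606 in mutants and 714, 583 and 455 against 637 and 524 in controls. The 3 arrays of 6-week spinal cord lay above all others used. Its regional difference was -0.76 ± 0.14 at 6 weeks and 0.19 and -0.01 at 10 weeks. The difference between ages had adjusted p = 0.0472 against mutants and 0.038 against the mean, called under 5 of 23 and 13 of 27 alternatives.

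Myl9, the light chain that switches smooth muscle myosin on, went the same way. Its signals were 325, 305 and 388 against 642, 621 and 514 at 6 weeks, 347, 386 and 419 against 328, 363 and 357 in 10-week mutants, and 389, 388 and 345 against 414 and 321 in 10-week controls. Again the 6-week spinal cord arrays stood above every other array. The regional difference of -0.76 ± 0.13 at 6 weeks became 0.12 and 0.03, and the test against the mean was called under 22 of 27 alternatives (adjusted p = 0.0234). Tagln, which binds smooth muscle actin, had -0.92 at 6 weeks and 0.07 and -0.50 at 10 weeks, and the pericyte genes Pdgfrb and Rgs5 had -0.68 and -0.54 against -0.03 and 0.16 in 10-week mutants, but for these 3 the difference between ages was not called. Over the whole list of 16 smooth muscle and pericyte genes the summed signal ran from 8839 to 9629 in 6-week spinal cord, from 6269 to 7628 and from 7600 to 7615 in 10-week mutant and control spinal cord, and from 6546 to 6762 in 6-week oculomotor nucleus. Some meningeal genes were lower at 10 weeks as well: of the 26 of that list 5 were called lower with age in mutant spinal cord and 0 higher, against 84 of 8072 called lower, and its regional median was -1.20 at 6 weeks and -0.85 and -0.75 in mutants and controls of 10 weeks. The part of meninges in the smooth muscle values was not tested.

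Smooth muscle genes often carry a CArG box, the site of serum response factor. Only its strict form was searched for, CC and GG around a run of A or T letters, on either strand of the 250 bases before the start. It was found in 439 of 27025 genes (1.62%), and in 1 of the 10 tested members of the list with a promoter sequence (10%). That member was Myl9, shown here because its signal marks 6-week spinal cord. Its promoter lies at chr2:156775214-156775463 on the plus strand of GRCm38.p6 (RefSeq), with the box in capitals from 161 to 152 bases before the start.
Myl9: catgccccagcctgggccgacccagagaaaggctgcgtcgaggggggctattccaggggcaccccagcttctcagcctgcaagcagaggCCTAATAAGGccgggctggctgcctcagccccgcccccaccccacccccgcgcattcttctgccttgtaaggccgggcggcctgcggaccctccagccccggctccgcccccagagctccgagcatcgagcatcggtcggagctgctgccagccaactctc
The match is a description of letters, not a measured site.

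Other genes were high in 6-week spinal cord without losing their regional difference. Col3a1 had 1499.7, 1611 and 1604 there, against 632, 991 and 605 in 10-week mutant spinal cord and 763 and 720.4 in controls, while the oculomotor arrays stayed between 155.3 and 253.8 in mutants and controls of both ages. Its regional difference of -2.77 at 6 weeks was -1.78 and -1.72 at 10 weeks, and the test against the mean had adjusted p = 0.0403, called under 10 of 27 alternatives. Both probe sets of Idi1 shrank in the same way, from -1.02 and -1.38 to -0.33 and -0.54 in 10-week mutants, with adjusted p = 0.0485 and 0.0249 against the mean, called under 7 of 27 and 18 of 26 alternatives.

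Klhl5, a kelch protein of the kind that hands targets to ubiquitin ligases, was lower in the oculomotor nucleus at 6 weeks, with 745, 656 and 693 against 1061, 1058 and 1066, and had -0.03 and 0.01 at 10 weeks (adjusted p = 0.0234 against the mean, 22 of 27 alternatives). Jak1, a kinase of cytokine receptors, had -0.61 ± 0.09 on 1 probe set and between -0.72 and -0.07 over the 3 it has, with 0.03 in 10-week mutants (called under 6 of 23 alternatives against mutants and 10 of 27 against the mean). Iqgap1, a scaffold of the cell cortex, had -0.96 ± 0.17 on 1 probe set, but its other 2 had -0.04 and -0.16 (called against the mean under 18 of 26 alternatives). A gene led by 1 probe set of several cannot be read as a change of the whole gene.

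The genes higher in the oculomotor nucleus at 6 weeks and level later were of other kinds. Atp5a1, the alpha subunit of mitochondrial ATP synthase, had 10206, 9536 and 10445 against 6317, 6724 and 6459.5 at 6 weeks, 9043, 9304 and 9328 against 9160, 9182 and 8525 in 10-week mutants, and 7709.8, 8520.3 and 8315 against 8881 and 8161 in controls. The 6-week spinal cord arrays were the lowest of all and the 6-week oculomotor arrays the highest. The regional difference went from 0.63 ± 0.07 to 0.04 and -0.06, with adjusted p = 0.0358 against mutants and 0.0138 against the mean, and the latter was called under 24 of 27 alternatives. Its other probe set had 0.21 at 6 weeks. No other respiratory chain gene of the list passed this test by its brightest probe set, though Atp5b (0.41), Uqcrb (0.42) and Atp5j (0.35) were called at 6 weeks.

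Sqstm1, the autophagy receptor p62 and a familial ALS gene, had 5231, 5027 and 5154 against 3516, 3654 and 3431 at 6 weeks. It had 5195, 5496 and 4813 against 5263, 5097 and 5003 in 10-week mutants and 4447, 4975 and 4985 against 4866 and 4534 in controls. The 3 arrays of 6-week spinal cord were lower than the other 14 used. Its regional difference was 0.54 ± 0.08 at 6 weeks and 0.01 and 0.03 at 10 weeks, with adjusted p = 0.0459 against mutants and 0.0222 against the mean (20 of 27 alternatives). This age test of Sqstm1 was singled out after its values were seen. Chn1, a Rac-regulating protein whose mutations disturb the eye movement nerves, had 2209, 2146 and 2210.4 against 1353, 1300.3 and 1376 at 6 weeks. At 10 weeks it had 2004, 1867 and 1807 against 1704, 1811 and 1667 in mutants, and 2359.8, 1945 and 2126 against 1975 and 1932 in controls. It was lowest in 6-week spinal cord, and its difference went from 0.69 ± 0.08 to 0.13 and 0.13 (adjusted p = 0.0222 against the mean, 22 of 27 alternatives).

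Rac3, a small GTPase of neurons, had 522, 569 and 543 against 148, 164 and 245 at 6 weeks and 520, 499.6 and 452 against 479, 411 and 469 in 10-week mutants. Its control spinal cord arrays read 261 and 585 and so disagreed. The regional difference of 1.46 ± 0.20 went to 0.11 in 10-week mutants and 0.62 in controls, and the test against mutants was called under only 4 of 23 alternatives. Commd1, which handles copper, had 759, 1076 and 997 against 398, 466 and 585 at 6 weeks, 739, 1191 and 928 against 1246, 1174 and 1058 in 10-week mutants, and 457, 309 and 404 against 387 and 416 in controls. It was low in 6-week spinal cord and in both regions of controls, and high in the other mutant groups. The level control regional value of Commd1 (-0.06) is thus a level of low signals, and that of 10-week mutants (-0.30) one of high signals. Its age tests were called under 7 of 23 alternatives against mutants and 18 of 27 against the mean.

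Several other genes with the same pattern rested on 1 of several probe sets. Dop1b had 1.24 ± 0.18 on 1 probe set and 0.01 on the other, and Dus1l 0.82 ± 0.14 on 1 and -0.02 on the other. Against the mean, the leading probe sets stayed called under 19 of 25 and 24 of 26 alternatives, and against mutants under 3 of 21 and 6 of 22. The 5 of Luc7l2, a splicing gene, ran from -0.09 to 1.32, and the 4 of Sfpq, another RNA-binding gene, from -0.36 to 1.19, with 19 of 27 and 21 of 27 alternatives against the mean for the leading probe set of each. Mdh1, an enzyme of the malate shuttle, had all 3 probe sets between 0.65 and 0.97 at 6 weeks, and its age test against the mean stayed called under 10 of 27 alternatives. Pth2, a neuropeptide gene, is measured by 1 probe set. It had 312, 408 and 322 against 128, 182 and 189 at 6 weeks and 179.9, 186 and 185 against 209, 173 and 199 in 10-week mutants, and 228, 219 and 191 against 204 and 153 in controls. The 6-week oculomotor arrays lay above all others used, but its change with age in the oculomotor nucleus was not called (adjusted p = 0.0607), and its age tests stayed called under 3 of 22 alternatives against mutants and 9 of 26 against the mean.

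Some genes were called at both ages of mutants in opposite directions, and the test of the difference passed for a few. Foxo3, a stress-responsive transcription factor, had -0.98 ± 0.18 at 6 weeks and 0.58 ± 0.18 in 10-week mutants on 1 probe set (adjusted p = 0.0358, 12 of 22 alternatives), and the other probe set had -0.06 at 6 weeks. Kcnk2, a background potassium channel, had -0.29 ± 0.10 at 6 weeks, 0.54 ± 0.10 in 10-week mutants and 0.56 ± 0.11 in controls. Its signals were 575, 547 and 593 against 674, 768 and 678 at 6 weeks and 745, 709 and 679 against 469, 524 and 454 in 10-week mutants. The regions did not overlap at either age and changed places between them (called under 11 of 23 alternatives against mutants and 25 of 27 against the mean). Cenpb, which binds centromeres, had 0.60 ± 0.13, -0.47 ± 0.13 and -0.27 ± 0.14 in the same order, and was low in 6-week spinal cord, at 169, 173 and 172 against 406, 375 and 318 in 10-week mutants. Its age tests stayed called under 12 of 22 and 22 of 26 alternatives. Pomk, a kinase acting on dystroglycan, had -0.55 ± 0.14 at 6 weeks and 0.46 ± 0.14 in 10-week mutants, and its other probe set had -0.45 at 6 weeks (called under 10 of 23 alternatives against mutants and 10 of 27 against the mean).

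The reverse pattern, under 1.2-fold in young mutants and lower in the oculomotor nucleus at 10 weeks, took in the myelin genes Mobp and Mag. Mobp, a myelin protein of the central nervous system, had 0.02 ± 0.12 at 6 weeks and -0.76 and -0.83 at 10 weeks on the probe set that passed (adjusted p = 0.0222 against the mean, 22 of 26 alternatives). Its other 2 probe sets had 0.20 and 0.23 at 6 weeks. Mag, an adhesion protein of the inner myelin wrap, had 4318, 3721 and 3678 against 5016, 4306 and 4679 at 6 weeks, 3321, 2984 and 3199.8 against 5179.5, 5258 and 5889 in 10-week mutants, and 2750.1, 2873 and 2936 against 5336 and 5585 in controls. The regions overlapped at 6 weeks and lay apart at 10, and its differences were -0.26 ± 0.09, -0.77 ± 0.09 and -0.93 ± 0.10. It was thus already called lower at 6 weeks, by a small amount (adjusted p = 0.0377), and the difference was larger at 10 weeks (adjusted p = 0.0222 against the mean, 23 of 27 alternatives). Nefl, the light neurofilament that was not called at 6 weeks, reached -0.59 and -0.69 at 10 weeks (adjusted p = 0.0496, 8 of 27 alternatives), and Trp53inp2, which acts in autophagy, -0.71 and -0.83 (adjusted p = 0.0301, 16 of 27 alternatives).

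Which region carried these age differences can be read from the change within each region, though these contrasts share arrays with the tests above. From 6 to 10 weeks 374 probe sets (2.76%) were called in mutant spinal cord, 242 higher and 132 lower at 10 weeks, and 3 (0.0221%) in mutant oculomotor nucleus, where 1197 had an unadjusted p under 0.05. Median centring turned the split in spinal cord, to 129 higher and 298 lower. The count of 374 was 122, 256 and 213 without replicates 1, 2 and 3 of 10-week mutant spinal cord and 115, 86 and 194 without replicates 1, 2 and 3 of 6-week spinal cord. Fitted with the 6 arrays alone it was 42. Spinal cord signals of Acta2 (-1.01 ± 0.14), Myl9 (-0.72 ± 0.13), Col3a1 (-1.09 ± 0.17) and Jak1 (-0.51 ± 0.09) were lower at 10 weeks. Those of Atp5a1 (0.46 ± 0.07), Sqstm1 (0.53 ± 0.08), Rac3 (1.21 ± 0.20), Commd1 (1.23 ± 0.18) and Mobp (0.48 ± 0.12) were higher.

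The 3 genes called in the oculomotor nucleus were Slc6a4, Cartpt and Abca8a. Slc6a4 had 975, 710.4 and 1103 at 6 weeks, 2098, 2640.1 and 1986 in 10-week mutants and 1391, 1161 and 1198 in controls. Cartpt had 2466, 1984 and 3508, 4526, 5668 and 5148 and 3164, 3901 and 3729 in the same order. The 10-week mutant arrays lay above the 6-week arrays for both genes, with changes of 1.26 ± 0.17 and 0.97 ± 0.15. Their regional differences accordingly widened, to 5.99 and 3.07 in 10-week mutants (adjusted p = 0.0454 and 0.0465), but stayed called under only 7 of 22 and 5 of 23 alternatives. Abca8a, a lipid transporter, rose by 0.85 ± 0.13. Without replicate 2 of either oculomotor group none of these was called, without replicates 1 and 3 of 10-week mutants there were 4 and 3, and without replicates 1 and 3 of 6-week mutants 4 and 6. Celf4, an RNA-binding protein of excitatory neurons, also widened, from 0.35 ± 0.12 to 1.32 ± 0.12 (adjusted p = 0.0426, 10 of 22 alternatives), as did Sema3e, a guidance cue, from 0.55 ± 0.20 to 1.77 ± 0.20 (adjusted p = 0.0412 against the mean, 9 of 26 alternatives). Cd24a narrowed from -2.32 ± 0.12 to -1.47 ± 0.12 (adjusted p = 0.0454, 6 of 23 alternatives).

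Single oculomotor arrays of 10 weeks had high signals of genes of the pituitary and choroid plexus. The summed signal of the 11 pituitary genes ran from 2934 to 26374 in 10-week mutant and from 3217 to 8916 in control oculomotor nucleus. Gh had 121, 13207 and 333 in the former, where replicate 2 stands far above the others, and 428, 773 and 2934 in the latter. The 11 genes of choroid plexus and ependyma ran from 1314 to 1758 and from 1360 to 8426, and the choroid plexus gene Ttr had 6884, 2148 and 90.2 in control oculomotor nucleus, high in replicates 1 and 2. Without replicate 2 of 10-week mutant oculomotor nucleus the changes of Slc6a4, Cartpt and Abca8a were 1.14, 0.90 and 0.86, with adjusted p = 0.0924, 0.108 and 0.0924. Whether pituitary or choroid plexus tissue has a part in these or the other age differences was not tested.

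**Figure D5:**
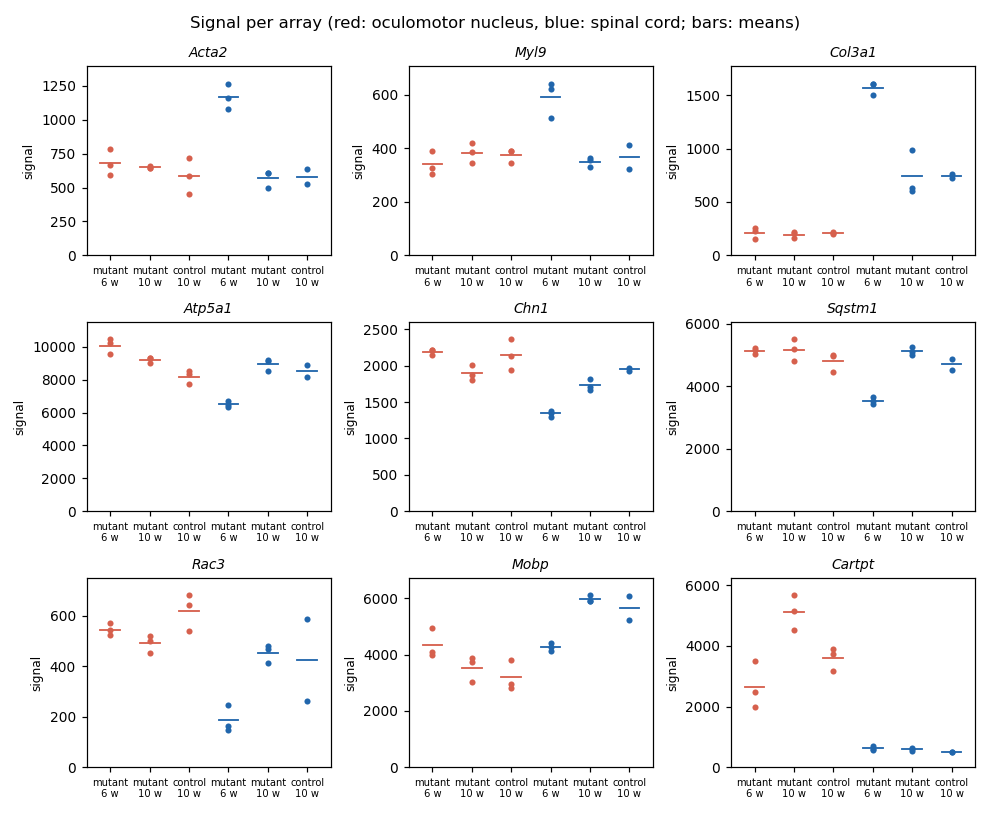
Signal per array (points; bars are means; linear axes from 0 in arbitrary units) of 9 genes in the 6 groups, oculomotor nucleus in red and spinal cord in blue. In Acta2 and Myl9 the 6-week spinal cord arrays lie above all others, in Sqstm1 and Atp5a1 below all others, and in Cartpt the 10-week mutant oculomotor arrays lie highest.

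Where regions did not differ, the data bound the difference for few genes. The 95% interval of the 6-week difference lay wholly inside 1.2-fold for 664 probe sets (4.89%), so for the other probe sets that were not called a difference of that size is not excluded by these arrays. Genes with several probe sets were another check. Of 3000 genes with more than 1 tested probe set 1178 had a call, 305 of them on every probe set in the same direction, 850 on only some and 23 in opposite directions, among them Prph, Nfib, Cdc42 and Dnm2. A value given above for a gene with several probe sets is therefore that of the named or brightest one.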

How the data were processed

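The authors deposited 1 linear intensity per probe set and array, from the MAS5 method in Affymetrix Microarray Suite 5.0 per the submitters' processing notes. The trimmed mean of each of the 17 arrays used was about 500 (499.96 to 499.97). After 64 control probe sets were left out, 25 was added to each signal and log2 taken, with no further normalization. Of the 18 arrays, 17 with a correlation above 0.5 to the others were fitted together with a mean for each of 6 groups (limma 3.58.1 in R 4.3.3, eBayes with a trend, 11 residual degrees of freedom), which lends all contrasts one estimate of the spread. The dimmest 40% of probe sets, those with a log2 mean over arrays under 7.38, were left out, and p-values were adjusted by Benjamini-Hochberg over the 13575 left. The steps were tested on simulated data.

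Contrasts were the regional difference at 6 weeks, its difference from that of 10-week mutants and from the mean of both 10-week comparisons, and the change with age in each region. Probe sets were named from the platform annotation (20380 with 1 symbol, 691 with several and 1555 with none), updated through gene identifiers for 20351; list counts use the brightest probe set of each gene. Genes were named from probe sets with 1 symbol and a group mean of at least 100: up to 5 members of each of 44 lists by p at 6 weeks, and in each further contrast or rule the called genes with the largest change or smallest p; the 5 marker genes given with the comparison and Sod1 are named in every case, and other list members and dim markers are named to describe their list. The members of the comparison and the lists were chosen with earlier results of these data known. The submitters' present and absent calls were not used here.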

Additional observations from a re-analysis of the deposited data

Results flagged for a closer look

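These genes had a regional difference that differed between the 6-week and the 10-week groups in the tests of the report, at adjusted p between 0.0138 and 0.0499 in limma. Each value is the 6-week difference minus the later one on the log2 scale, against 10-week mutants ("mutants") or the mean of both 10-week comparisons ("the mean"). The mean holds the controls, so for values against it age and genotype cannot be told apart. Over the alternatives tried, the tests against mutants stayed called under 2 of 22 (Mobp) up to 12 of 22 (Foxo3 and Cenpb), and those against the mean under 4 of 25 (Rian) up to 25 of 27 (Kcnk2).

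More negative at 6 weeks, and so relatively higher in young spinal cord, were the contractile genes Acta2 (-0.95 against mutants and -0.85 against the mean) and Myl9 (-0.88 and -0.84), the collagen gene Col3a1 (-1.02 against the mean) and both probe sets of the sterol enzyme Idi1 (-0.69 and -0.96 against the mean). The same held for Klhl5 (-0.58 against the mean), Iqgap1 (-1.10 against the mean), Jak1 (-0.64 against mutants and -0.50 against the mean), Foxo3 (-1.56 and -1.07), Kcnk2 (-0.83 and -0.84) and Pomk (-1.02 and -0.76). Cd24a had -0.85 against mutants.

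More positive at 6 weeks were Atp5a1 (0.58 against mutants and 0.64 against the mean), Sqstm1 (0.53 and 0.52), Chn1 (0.56 and 0.57), Commd1 (1.23 and 1.11) and Pth2 (1.03 and 0.88). Rac3 had 1.35 against mutants, and Mdh1 had 0.54 against the mean. Of genes with discordant probe sets, Dop1b had 1.18 and 1.22, Dus1l 1.07 and 1.11, Luc7l2 1.00 and 0.92, Sfpq 1.00 against the mean and Rian 1.11 against the mean. Cenpb had 1.07 and 0.97.

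Genes that differed by under 1.2-fold at 6 weeks, Mag being called lower even so, and were lower in the oculomotor nucleus later were Mobp (0.77 against mutants and 0.81 against the mean), Mag (0.60 against the mean), Nefl (0.48) and Trp53inp2 (0.71). Genes whose excess in the oculomotor nucleus was smaller at 6 weeks were Slc6a4 (-1.27 against mutants), Cartpt (-1.05 and -0.89), Celf4 (-0.97 and -0.80) and Sema3e (-1.19 against the mean). The size for Slc6a4 depends on the offset, as its spinal cord signals lie under it.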

How the results depend on the processing

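In place of 3239 probe sets at 6 weeks, 2536 to 2820 were called when 1 of the 6 arrays was left out, 2123 with 1 probe set per gene and 326 when the left-out control array was added (all 18 arrays). With a 2-fold change required beside the adjusted p there were 338, and 338 also by the submitters' kind of rule, no overlap between the arrays of both regions together with a mean difference beyond 2-fold, without a p-value. The other alternatives kept the count within 1.5 times.

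The tests of the difference between ages were the least stable. Against 10-week mutants, 50 calls became 13 with quantile normalization, 20 with median centring, 29 without a trend, and 0 with no filter, all 18 arrays or the arrays of the contrast alone, and 0 to 23 with 1 array left out. Against the mean of the 10-week comparisons, 102 calls became 43 with quantile normalization, 28 with no filter, 56 without a trend, 0 with all 18 arrays and 9 to 190 with 1 array left out. The 3 calls of change in mutant oculomotor nucleus became 14 with quantile normalization, 6 with signals floored at 25, 11 with an offset of 100, 5 with no filter, 7 without a trend, 10 with 1 probe set per gene, 0 with all 18 arrays or its own arrays and 0 to 6 with 1 array left out. The 374 in spinal cord became 237 with 1 probe set per gene, 42 with its own arrays, 0 with all 18 arrays and 86 to 256 with 1 array left out. The 146 probe sets small at 10 weeks became 76 with an offset of 100, 221 with no filter, 71 with a filter of 60%, 15 with all 18 arrays and 79 with 1 probe set per gene. The cause of these shifts was not tested, except that the rule of 1 probe set per gene and the filters change how many are tested.

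With the replicate number as a block, 2809 probe sets were called at 6 weeks, 0 in either test of the difference between ages, 8 and 356 for the changes with age in the oculomotor nucleus and spinal cord, and 145 were small at 10 weeks. Deviations of same-numbered arrays of both regions correlated at -0.031, 0.107 and -0.011 at 6 weeks. Pairs with different numbers ran from -0.072 to 0.074 there. With so few arrays in a group, these values cannot show whether same-numbered arrays come from the same animals.

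Over the 419 pairs of named gene and contrast, 6364 of 7866 alternative values kept direction and side of the threshold, 1429 were no longer called, 67 became called and 6 reversed. The reversed values were that of Hspa8 at 6 weeks with quantile normalization (-0.0029) and, against the mean with all 18 arrays, those of Chn1 (-0.15), Mdh1 (-0.44), Trp53inp2 (-0.32), Nefl (-0.57) and Sqstm1 (-0.39). List medians under each alternative, and 14 of the age tests of single genes, among them those of Sqstm1 and Kcnk2, were added after seeing the data. With 3 arrays a group, small differences in dim genes were beyond what these data resolve.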

Other observations

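Other gene groups of the 6-week comparison have not yet been described. Their counts stand against 12.6% of all 8072 tested genes called higher and 12.4% called lower. Those of the immediate early genes lie near these shares, and lists this short allow no more than a description. Of 17 clock genes 5 were called higher in the oculomotor nucleus and 0 lower, among them the clock output factor Hlf (0.65 ± 0.12) and Per3 (0.59 ± 0.12), while Arntl (0.01 ± 0.15) and Nr1d1 (-0.15 ± 0.17) were not called. Of 24 immediate early genes 2 were called higher, Nr4a2 and Bdnf, and 4 lower, including Gadd45b (-0.78 ± 0.15) and Dusp6 (-0.59 ± 0.16), and Fos (-0.19 ± 0.27), Egr1 (-0.39 ± 0.21) and Arc (-0.06 ± 0.17) were not called. Of 16 glucocorticoid-responsive genes 5 were called lower and 0 higher, led by the feedback inhibitor Errfi1 (-1.15 ± 0.13) and the metabolic switch Pdk4 (-0.87 ± 0.17), whereas Fkbp5 (-0.05 ± 0.13) was not called.

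Transport genes were mostly level, with 3 of 25 called higher and 2 lower, which is no more than the share of all tested genes. Kif3a, a kinesin motor, was higher (0.67 ± 0.18), and the dynein and dynactin genes Dync1h1 (-0.05 ± 0.09) and Dctn1 (0.08 ± 0.08) were not called. Of 24 chaperone genes the clearest were the small heat shock genes Hspb1 and Hspb8, both lower (-1.46 ± 0.17 and -1.39 ± 0.15). Of 9 antigen presentation genes Cd74 was called lower (-0.60 ± 0.13) and B2m (-0.37 ± 0.25) was not. Of 9 genes of oligodendrocyte precursors 3 were called lower, including Pdgfra (-0.51 ± 0.13), and 1 higher, Cspg5 (0.63 ± 0.11).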
